A study of Mus musculus with 2 samples.

Results

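The genes described here are 9 that act in the making of inhibitory neurons: the homeobox genes Dlx1, Dlx2, Dlx5 and Gsx2, the long noncoding RNA gene Dlx6os1, the zinc finger genes Sp8 and Sp9, and the GABA synthesis genes Gad1 and Gad2. They were chosen by symbol from the authors' deposited gene table, and 8 of the 9 had a row among its 17359 genes. Dlx6os1 was not analysed here. The study measured RNA by sequencing in mouse neural stem cells, which divide and give rise to neurons and glia. The siChd4 group (1 library) was transfected with an siRNA against Chd4, which encodes a chromatin remodelling ATPase of the NuRD complex, and the siSCR group (1 library) with a scrambled siRNA. The labels call the first Chd4 knockdown and the second control. The sources used here do not give the strain, the age and brain region of the cells, the siRNA dose or when RNA was taken.

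With 1 library in each group there was no replicate and no test between conditions, so every difference is between these libraries. The libraries held 20072009 estimated counts in siChd4 and 19816811 in siSCR. Levels are in TPM, a share of all transcripts after correction for transcript length. Intervals are exact 95% intervals from the counts and cover counting error only. Without molecular identifiers, reads cannot be taken as independent molecules. The siRNA target Chd4 was at 203 TPM in siChd4 against 250 TPM in siSCR, 0.815-fold (0.795 to 0.836). As a log2 ratio of TPM + 1 this was -0.29, where the lower quartile of the 12882 genes with a mean TPM of 1 or more was -0.24. The stem cell label was met by abundant markers, among them Sox2 (336 TPM in siChd4, 314 in siSCR) and Nes (396 TPM in siChd4, 328 in siSCR). These markers were picked after their values were seen.

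In the embryonic forebrain, inhibitory neurons that use GABA arise in the ventral part, the subpallium. There, progenitors express Gsx2, which acts upstream of the Dlx homeobox genes. Dlx1 and Dlx2 lie side by side in opposite orientation, promote the inhibitory fate and act before Dlx5 and Dlx6, a second such pair. Dlx factors activate the Gad genes, and Sp8 and Sp9 act in the development of interneurons, including those of the olfactory bulb.

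Of the 9 genes, 7 reached the filter, a mean TPM of 1 or more, and Dlx5 did not. Dlx1 and Dlx2 were the 2 genes at least 1.5-fold higher in siChd4 on the TPM + 1 scale, and 0 were 1.5-fold lower. Over all 12882 genes that passed the filter, 6.75% were 1.5-fold higher and 4.47% lower. The median log2 ratio of the 7 was 0.32, where that of all genes was -0.04. Of the 7, 6 lay above 0 and Sp8 lay below, and the share of all genes above 0 was not counted. The counting interval of the fold stood above 1 for Dlx1, Dlx2, Gad1 and Gad2, below 1 for Sp8, and included 1 for Gsx2 and Sp9. At a 2-fold limit 0 of the 7 were called, where 2.26% of all genes were higher and 0.629% lower. Among all genes that passed the filter, 25.1% had such an interval above 1 and 34.1% below 1.

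**Figure D1:**
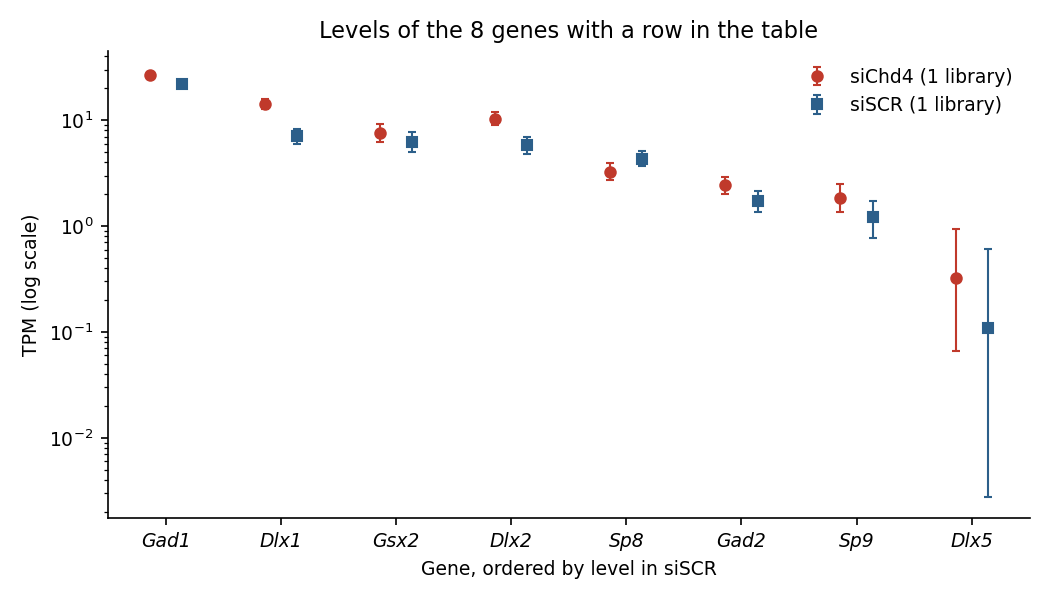
Level of each gene in TPM on a log scale in the siChd4 library (circles) and the siSCR library (squares), with exact 95% Poisson intervals of the counts. Gad1 is the most abundant in each library, and Dlx5 rests on 2.99 and 1 counts.

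The order of the levels can be read per length. In siChd4 it was Gad1, Dlx1, Dlx2, Gsx2, Sp8, Gad2, Sp9 and Dlx5, and in siSCR Gsx2 stood above Dlx2. In siSCR, the intervals of Dlx1 (6.0 to 8.26 TPM), Gsx2 (4.97 to 7.80 TPM) and Dlx2 (4.77 to 6.99 TPM) overlapped. Overlap of separate intervals does not show that levels were equal, and levels of different genes were not tested against each other. In siChd4, the interval of Dlx1 (12.8 to 15.9 TPM) lay above that of Dlx2 (9.0 to 11.9 TPM). Those of Dlx2 and Gsx2 (6.18 to 9.20 TPM) overlapped. Gad2 and Sp9 overlapped in each library. The whole set summed to 66.6 TPM in siChd4 against 48.5 TPM in siSCR. These were modest levels: Gad1 stood above 48.2% of the genes that passed the filter in siChd4 and 42.4% in siSCR, and Sp9 above 5.33% and 3.02%.

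Dlx1 (Entrez 13390) was at 14.3 TPM in the siChd4 library against 7.06 TPM in the siSCR library, from 337 and 157 estimated counts. The fold was 2.02 (1.67 to 2.46) and the log2 ratio on TPM + 1 was 0.92. In bulk RNA, more cells of a type and more RNA per cell cannot be told apart. Of the genes that passed the filter, 2.72% had a larger log2 ratio. Dlx2 (Entrez 13392) was at 10.4 TPM in siChd4 against 5.80 TPM in siSCR, from 209 and 111 counts, a fold of 1.79 (1.41 to 2.27), and 4.39% of genes had a larger log2 ratio. The folds of the pair did not differ from each other beyond counting error. The count ratio of Dlx1 divided by that of Dlx2 was 1.14, with a counting interval of 0.836 to 1.55 that includes 1. Dlx1 has an antisense gene, Dlx1as, that overlaps it, and the sources used here do not say whether counting used strand, so reads of the pair cannot be told apart.

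Dlx5 and Dlx6, the later pair, were at the limit of detection. Dlx5 (Entrez 13395) was at 0.32 TPM in siChd4 against 0.11 TPM in siSCR, from 2.99 and 1 counts, and both lie at or under the floor of 3 counts. Dlx6 had 1 count in each library. The other Dlx genes with a row, named after their values were seen, were as low: Dlx3 had 1 count in siChd4 and 0 in siSCR, and Dlx4 had 2 and 0. A difference in any of these 4 genes was not detectable at this depth. Dlx1 and Dlx2 were thus the Dlx genes with counts above the floor.

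Gsx2 (Entrez 14843), the progenitor factor upstream of the Dlx genes, was at 7.58 TPM in siChd4 against 6.26 TPM in siSCR, from 102 and 79.9 counts. Its fold of 1.21 (0.893 to 1.64) was within counting error. Its paralog Gsx1 differed more, at 10.1 TPM in siChd4 against 3.81 TPM in siSCR, a fold of 2.65 (1.91 to 3.70). The count ratio of Gsx1 divided by that of Gsx2 was 2.18 (1.39 to 3.45), a pair chosen after the values were seen. Gsx1 stood above Gsx2 in siChd4, with a ratio of their TPM of 1.33, and below it in siSCR, at 0.609.

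**Figure D2:**
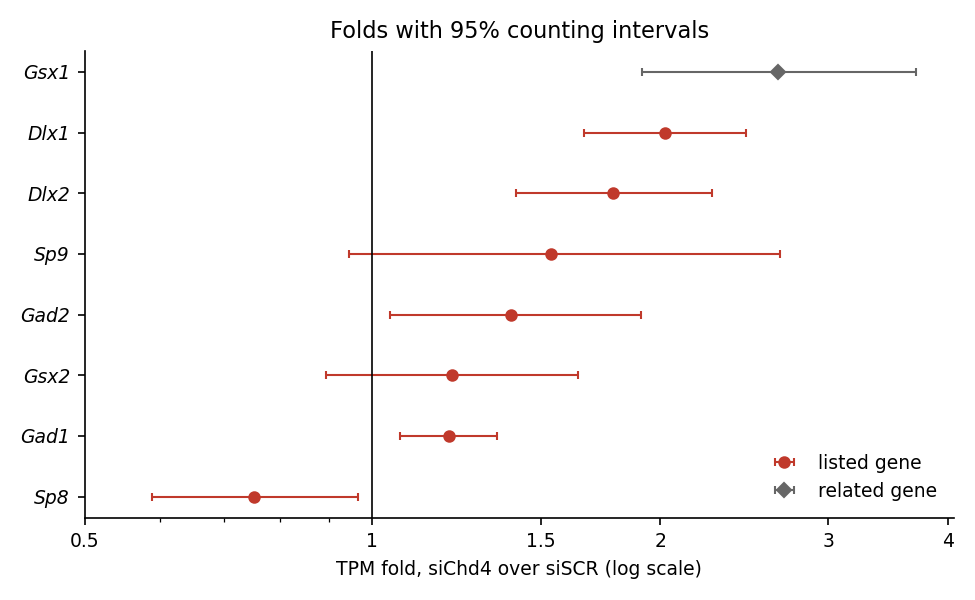
TPM fold of siChd4 over siSCR on a log scale for the 7 listed genes that passed the filter (circles) and the related gene Gsx1 (diamond), with exact 95% counting intervals. Gsx1, Dlx1 and Dlx2 stand highest, and Sp8 is the 1 gene below 1.

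The folds of the zinc finger pair stood on opposite sides of 1. Sp8 (Entrez 320145) was at 3.26 TPM in siChd4 against 4.33 TPM in siSCR, from 120 and 151 counts, a fold of 0.753 (0.589 to 0.966). In CPM, counts scaled to library size without the length correction, the ratio was 0.783 (0.612 to 1.004), so its distance from 1 is at the edge of counting error. Sp9 (Entrez 381373) was at 1.86 TPM in siChd4 against 1.21 TPM in siSCR, from 42.8 and 26.5 counts, a fold of 1.54 (0.945 to 2.67). The count ratio of Sp8 divided by that of Sp9 was 0.482 (0.268 to 0.854), an interval below 1. In level, Sp8 was 1.75 times Sp9 in siChd4 and 3.58 times Sp9 in siSCR. Against Dlx1, in a pair chosen after the values were seen, the ratio for Sp8 was 0.371 (0.270 to 0.508).

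Both GABA synthesis genes were within 1.5-fold. Gad1 (Entrez 14415), which encodes the larger glutamate decarboxylase, was at 26.5 TPM in siChd4 against 22.0 TPM in siSCR, from 652 and 520 counts, a fold of 1.20 (1.07 to 1.35). Gad2 (Entrez 14417), which encodes the smaller one, was at 2.43 TPM in siChd4 against 1.74 TPM in siSCR, from 113 and 76.4 counts, a fold of 1.40 (1.04 to 1.91). Larger log2 ratios were found for 18.5% and 14.8% of the genes that passed the filter. Gad1 and Gad2 did not differ from each other in their count ratios beyond counting error (0.843, 0.608 to 1.17). Gad1 was 10.9 times Gad2 in TPM in siChd4 and 12.6 times in siSCR. Divided by the count ratio of Dlx1, that of Gad1 was 0.584 (0.465 to 0.733) and that of Gad2 0.693 (0.483 to 0.997), again pairs chosen after the values were seen.

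**Figure D3:**
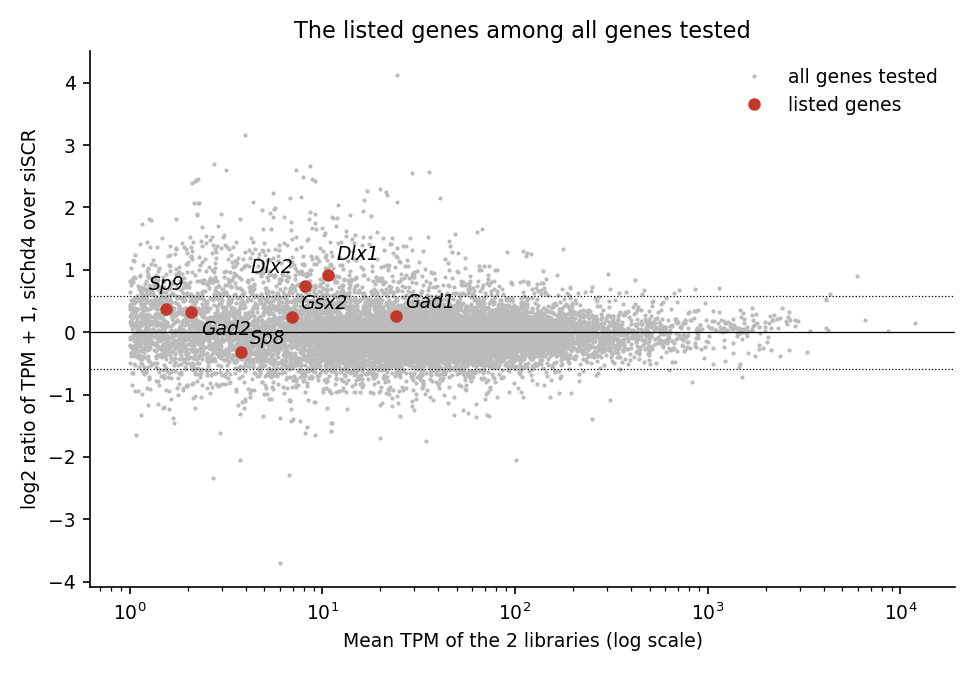
Log2 ratio of TPM + 1 (siChd4 over siSCR) against the mean TPM on a log scale for all 12882 genes that passed the filter (grey) and the 7 listed genes (red), with dotted lines at 1.5-fold. Dlx1 and Dlx2 lie above the upper line and the other 5 lie between the lines.

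Promoter windows were available for 8 of the 9 genes, from RefSeq on GRCm38.p6. That build differs from the mm39 build named in the submitters' processing notes, so positions are of GRCm38.p6 only. The 250 bases before the start site are shown for Dlx2, 1 of the listed genes past 1.5-fold, for Sp8, the listed gene with a fold below 1, and for the paralogs Gsx2 and Gsx1, which differed from each other. None of these 4 windows holds a base of an exon in GENCODE M21. All 250 bases of the Dlx1 window do, and it is not shown. For Sp8 the window is the second of 3. Each is written from 5′ to 3′, and capitals mark a GC box.
Dlx2, chr2:71546755-71547004, - strand: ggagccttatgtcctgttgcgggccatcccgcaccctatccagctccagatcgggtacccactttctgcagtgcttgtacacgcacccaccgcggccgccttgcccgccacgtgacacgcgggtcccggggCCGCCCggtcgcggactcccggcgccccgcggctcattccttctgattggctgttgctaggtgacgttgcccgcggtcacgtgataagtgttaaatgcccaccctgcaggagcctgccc
Gsx1, chr5:147188446-147188695, + strand: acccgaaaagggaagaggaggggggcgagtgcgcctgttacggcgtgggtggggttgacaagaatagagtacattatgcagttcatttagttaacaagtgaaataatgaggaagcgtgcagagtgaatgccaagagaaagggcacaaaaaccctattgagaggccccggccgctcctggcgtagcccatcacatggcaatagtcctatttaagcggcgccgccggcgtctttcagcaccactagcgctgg
Gsx2, chr5:75075351-75075600, + strand: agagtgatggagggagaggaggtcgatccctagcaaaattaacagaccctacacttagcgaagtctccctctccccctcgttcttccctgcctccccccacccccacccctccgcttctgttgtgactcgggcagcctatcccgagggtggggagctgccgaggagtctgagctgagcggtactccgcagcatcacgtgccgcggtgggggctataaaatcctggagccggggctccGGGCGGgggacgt
Sp8, chr12:118846983-118847232, + strand: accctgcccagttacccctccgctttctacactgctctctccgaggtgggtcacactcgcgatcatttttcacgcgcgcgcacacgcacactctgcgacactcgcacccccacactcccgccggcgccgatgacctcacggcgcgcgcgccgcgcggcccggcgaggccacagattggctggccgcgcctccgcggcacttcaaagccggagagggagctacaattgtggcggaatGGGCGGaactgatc

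The windows were searched on both strands for the homeodomain core TAATTA, the E-box form CAGCTG and the GC box GGGCGG. The GC box reads CCGCCC on the other strand, and other forms of the E-box were not searched for. No matches overlapped each other. Dlx2, Gsx2 and Sp8 each held 1 GC box, which begins 119, 13 and 14 bases before the start site, and Gsx1 held none. None of the 4 windows held TAATTA or CAGCTG. Of 32851 promoter windows of the same length, 32.7% held the GC box, 13% CAGCTG and 4.84% TAATTA. The 4 windows were rich in CpG, with 24 in Dlx2, 15 in Gsx1, 16 in Gsx2 and 32 in Sp8, where the median of all windows was 6. The other 2 Sp8 windows, not shown, held 1 and 6 CpG and no GC box, and the one with 6 CpG held 1 TAATTA. The Dlx1 window held none of the 3 motifs. A match describes letters only.

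Gad1, Dlx1, Dlx2 and Sp9 all lie on chromosome 2, in this order, with other genes between them. In the stretch from the fifth neighbour before Gad1 to the fifth after Sp9, counting genes that passed the filter, there were 30 genes in RefSeq's GRCm38.p6 order. The 4 listed genes had log2 ratios above 0. Of the other 26, 23 lay below 0 and 3 above, with a median of -0.25 and a range of -0.96 to 0.31. Over all genes that passed the filter, the median was -0.04 and the lower quartile -0.24, and the share below 0 was not counted. The genes at least 1.5-fold lower were Dcaf17 (7.66 TPM in siChd4 against 15.8 TPM in siSCR), Cybrd1 (45.8 TPM in siChd4, 75.9 in siSCR) and the metabolic kinase gene Pdk1 (7.31 TPM in siChd4, 12.1 in siSCR).

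**Figure D4:**
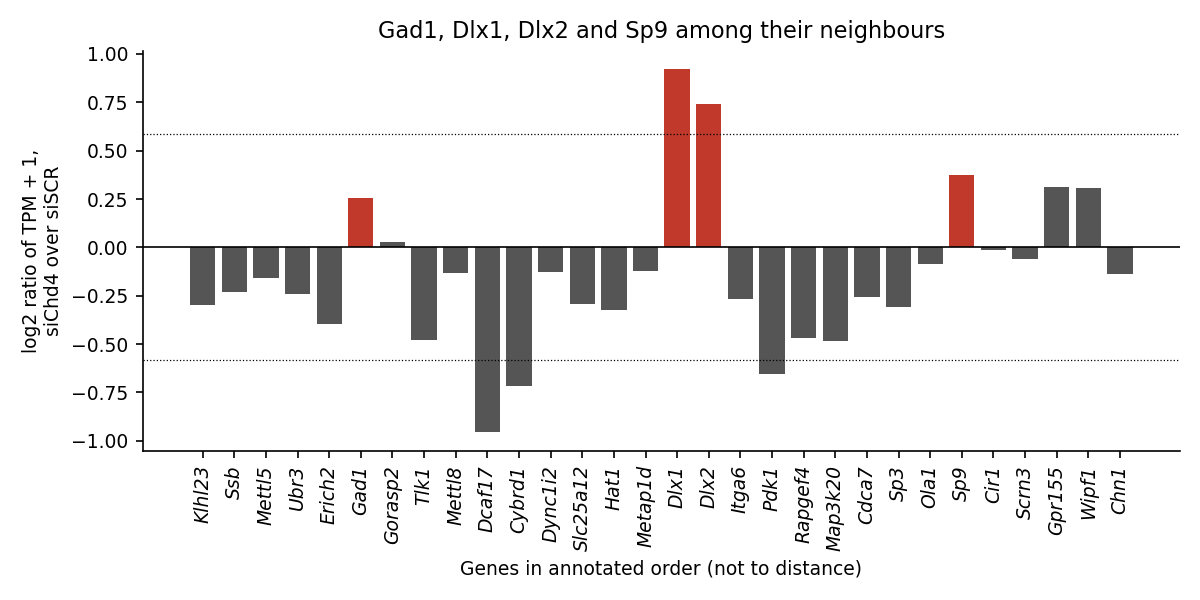
Log2 ratio of TPM + 1 (siChd4 over siSCR) for 30 genes of chromosome 2 in annotated order, not to distance, with dotted lines at 1.5-fold. The 4 listed genes (red) lie above 0 and 23 of the 26 others (grey) lie below it. The median of all genes that passed the filter is -0.04.

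Around Dlx5 and Dlx6, the 10 nearest genes that passed the filter had a median of -0.22, and C1galt1 was 1.5-fold lower (15.3 TPM in siChd4 against 23.7 TPM in siSCR). Around Gad2, the 10 nearest had a median of -0.22. Among them Gpr158, an orphan receptor gene, was higher (6.28 TPM in siChd4 against 2.18 TPM in siSCR), and Enkur was lower (1.08 TPM in siChd4, 2.20 in siSCR), with a fold interval of 0.199 to 1.07 that includes 1. Counting each gene once over all 4 places, 8 of 46 neighbours lay above 0, and 1 was 1.5-fold higher and 5 lower. Over all genes that passed the filter, 6.75% were 1.5-fold higher and 4.47% lower, and the share above 0 was not counted. The median of the 46 neighbours was -0.24, where that of all genes was -0.04.

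Other regulators of the subpallium and of interneurons were split. Of 28 listed, 22 passed the filter, with a median log2 ratio of 0.04, and 2 were 1.5-fold higher and 1 lower. Gsx1, described above, was 1 of the higher genes. Lower was Foxp1, a forkhead factor gene of striatal neurons, at 2.53 TPM in siChd4 against 4.89 TPM in siSCR. The next genes were picked after their values were seen. Meis2, a cofactor gene of the lateral subpallium, was at 127 TPM in siChd4 against 101 in siSCR. Nkx2-1, which marks the medial ganglionic eminence, was at 1.27 TPM in siChd4 against 1.17 TPM in siSCR, and its downstream gene Lhx6 had 1.15 counts in siChd4 and 3.77 in siSCR.

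Genes that transport, release or break down GABA were lower at the median, -0.34 over 8 that passed the filter of 11 listed. Of the 8, 1 was 1.5-fold higher and 0 lower. Slc32a1, which loads GABA into synaptic vesicles and was picked after its values were seen, had 2 counts in siChd4 and 1.71 in siSCR, under the floor in each. The list of receptor subunits also holds Gphn, which encodes a scaffold protein and not a subunit. Of its genes, 9 of 15 passed the filter, with a median of -0.01, which is the value of Gphn. Gabrg1 was the 1 past 1.5-fold, at 23.3 TPM in siChd4 against 43.3 TPM in siSCR.

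Markers of interneuron subtypes were mostly below the filter, with 4 of 15 above it and a median of 0.24. Htr3a, a serotonin receptor gene of some interneurons, was at 3.46 TPM in siChd4 against 1.73 TPM in siSCR (2.0, 1.25 to 3.24). Pvalb, a calcium-binding protein gene, was at 0.93 TPM in siChd4 against 1.91 TPM in siSCR, from 7 and 14 counts, with an interval of 0.166 to 1.29 that includes 1. Without the filter on low values, 4 markers were 1.5-fold higher and 1 lower. Of the 17352 genes counted at this setting, 1017 were higher and 657 lower. The higher markers were Htr3a and, below the filter, Drd2, Npy and Calb1, picked after their values were seen. Drd2, a dopamine receptor gene that is not particular to interneurons, had 22 counts in siChd4 and 0 in siSCR. Npy had 5 counts in siChd4 and 1 in siSCR, with a fold interval of 0.519 to 219 that includes 1. Calb1, a calcium-binding protein gene, had 29 counts in siChd4 and 7 in siSCR (4.0, 1.71 to 10.8). Genes of the dorsal pallium, where glutamatergic neurons arise, had 7 of 20 members above the filter, a median of -0.10 and 0 past 1.5-fold either way. The most abundant were Lhx2 (114 TPM in siChd4 against 143 TPM in siSCR) and Emx2 (35.0 TPM in siChd4, 37.6 in siSCR).

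Among genes of interneuron migration and genes that depend on Dlx, Sp8 or Sp9, 13 of 15 passed the filter, with a median of 0.24. The list does not separate genes that these factors raise from genes that they lower, so its median has no expected direction. The chemokine receptor gene Cxcr4 was at 12.4 TPM in siChd4 against 7.01 TPM in siSCR (1.77, 1.37 to 2.29). The kinase gene Pak3 was at 13.1 TPM in siChd4 against 7.09 TPM in siSCR (1.84, 1.65 to 2.07), and Dcx, a microtubule gene of migrating neurons, at 10.9 TPM in siChd4 against 3.71 in siSCR (2.93, 2.54 to 3.38). Robo1, a Slit receptor gene, was lower, at 7.93 TPM in siChd4 against 13.6 TPM in siSCR. The 3 higher genes and 1 lower gene were those past 1.5-fold. Dcx is also among the neuron markers described below.

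**Figure D5:**
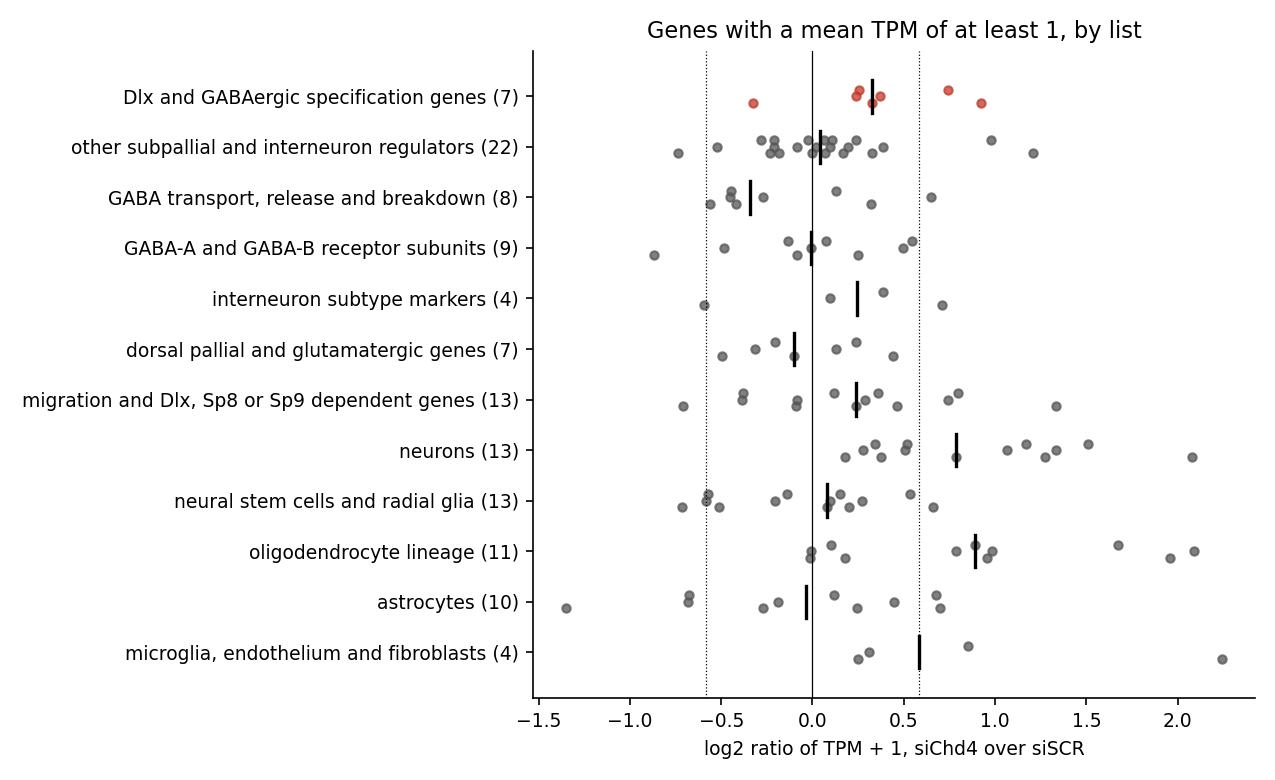
Log2 ratio of TPM + 1 (siChd4 over siSCR) of each gene that passed the filter, by list, with the number of such genes in brackets, black bars at the medians and dotted lines at 1.5-fold. The neuron list has its median at 0.78 and the oligodendrocyte lineage list at 0.89, and the 7 listed genes at 0.32.

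Markers of neurons were higher in the same library as Dlx1 and Dlx2. Of the 14, 13 passed the filter and all 13 lay above 0, 7 of them past 1.5-fold, with a median of 0.78. Tubb3, the neuronal tubulin gene, was at 40.0 TPM in siChd4 against 8.70 TPM in siSCR, and the neurofilament gene Ina at 34.3 TPM in siChd4 against 11.4 in siSCR. The list summed to 1120 TPM in siChd4 against 802 TPM in siSCR, and 0 of its genes were at 0. The oligodendrocyte lineage list had 7 of 11 genes past 1.5-fold higher and 0 lower, and summed to 3100 TPM in siChd4 against 2965 TPM in siSCR, with Sox10 (7.71 TPM in siChd4, 1.05 in siSCR) and Cldn11 (8.30 TPM in siChd4, 1.39 in siSCR) furthest from 0. Their part in the differences of the Dlx and GABAergic genes was not tested.

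The 13 markers of stem cells and radial glia had a median of 0.08, with Sox9 higher (81.1 TPM in siChd4 against 51.0 TPM in siSCR) and Prom1 lower (4.72 TPM in siChd4, 8.37 in siSCR), and summed to 13879 TPM in siChd4 against 11835 TPM in siSCR. Astrocyte markers had a median of -0.04 over 10 genes, with 2 past 1.5-fold higher, Sparcl1 and Apoe, and 3 lower, Gja1, Slc1a2 and Cd44, and summed to 2738 TPM in siChd4 against 2000 TPM in siSCR. Of 13 markers of microglia, endothelium and fibroblasts, 4 passed the filter, with a median of 0.58. The list summed to 49.9 TPM in siChd4 against 16.2 TPM in siSCR, and the microglial receptor gene P2ry12 was at 36.1 TPM in siChd4 against 6.84 TPM in siSCR. Col1a1, a collagen gene, was at 1.96 TPM in siChd4 against 0.64 TPM in siSCR. The next genes of this list were below the filter and picked after their values were seen. Cx3cr1 had 0.71 counts in siChd4 and 1.02 in siSCR, Ptprc 2 in siChd4 and 4.19 in siSCR, and Csf1r 6 in siChd4 and 4 in siSCR. Aif1, Dcn and Lum had 2.3, 1 and 2 counts in siChd4 and 0 in siSCR, so a difference was not detectable. Col3a1, another collagen gene, had 3 counts in siChd4 and 9.62 in siSCR. The part of these cell types in the differences of the listed genes was not tested either.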

How the data were processed

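RNA of mouse neural stem cells was sequenced in 2 libraries, siChd4 and siSCR, grouped by the sample titles. The authors deposited 1 table of 17359 genes. Per the file headers it holds TPM, FPKM and read counts. The deposited counts are taken as estimated counts per gene, since 14.3% of those above 0 in siChd4 and 12.2% in siSCR were within 0.001 of a whole number. They were rounded for intervals. The submitters' processing notes name the build mm39. Not given in the sources used here were aligner, counting tool and use of strand.

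For each gene, siChd4 was set over siSCR as a log2 ratio of TPM with a pseudocount of 1, for the 12882 genes whose mean TPM was 1 or more. This scale narrows the differences of low genes, and folds of TPM stand beside it. The limit was 1.5-fold. Folds have exact Clopper-Pearson 95% intervals of the count ratio, scaled to the TPM fold, and levels have exact Poisson intervals. They cover counting error only, and a floor of 3 counts was 0.149 CPM in siChd4 and 0.151 in siSCR. Ratios between pairs of genes have exact conditional intervals. There was no test between conditions. The computation was tested on simulated data.

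The named genes are the listed genes, Dlx6, Chd4, up to 3 genes per direction past 1.5-fold in each related list (or its 2 most abundant), and neighbours past 1.5-fold. Some genes that this rule takes are left out here. Others are marked as picked after their values were seen. With 2 libraries a pattern is 1 ratio, so genes were not ranked by likeness. The members and lists were chosen with earlier results of these data known. A gene can pass the filter through the library where it is higher. Neighbours came from RefSeq on GRCm38.p6, to which 17306 Entrez numbers matched, and exons from GENCODE M21. Alternatives were other pseudocounts, scalings (TMM from edgeR 4.0.16), units, filters, limits and a length trend taken off the ratios (lowess, statsmodels 0.14.6). Intervals used scipy 1.17.1.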

Additional observations from a re-analysis of the deposited data

How the results depend on the processing

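For the 7 listed genes that passed the filter, the sign of the log2 ratio held under median-of-ratios scaling, CPM with TMM scaling, FPKM and the length trend. Another pseudocount or filter cannot turn it. Each value moved by less than the mean of that gene's upper and lower counting errors on the log2 scale, and over all alternatives the ranges were 0.68 to 1.01 for Dlx1, 0.51 to 0.83 for Dlx2 and -0.40 to -0.18 for Sp8. With a pseudocount of 5, 1 listed gene, Dlx1, was past 1.5-fold higher, and 419 genes were higher and 250 lower in all. At a 2-fold limit 0 listed genes were higher, with 291 genes higher and 81 lower in all. On FPKM, 295 genes were lower. With a mean TPM of at least 5, 533 genes were higher, and the median of the 4 listed genes left was 0.50. A larger pseudocount, a higher limit and fewer genes lower these counts by construction. FPKM values were smaller than TPM values, for Dlx1 5.92 against 14.28 in siChd4 and 2.81 against 7.06 in siSCR. A pseudocount of 1 therefore weighed more on FPKM, and its part in the FPKM difference was not tested. Of 220 counts over the related lists, 50 moved by more than 1.5 times, mostly counts of few genes. Scaling moved the median of all genes by under 0.1. Depth limits Dlx5, Dlx6 and Slc32a1, which were at or under the floor. No paired analysis was possible because there was 1 library a group, and for that reason no library could be left out.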
